A study of Mus musculus with 36 samples.

Results

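The genes described here are 52 named DNA repair genes of the mouse, followed through an allelic series of the chromatin remodeller gene Chd8 in the embryonic forebrain. They were taken by symbol from the 46603 genes of both count tables and sorted by the pathway they serve: 11 genes of homologous recombination, 10 of the Fanconi anaemia pathway, 6 of end joining, 6 of mismatch repair, 11 of base excision repair and 8 of nucleotide excision repair. Each symbol matched 1 gene identifier, and all 52 genes passed the filter on low counts in every comparison. No measured value entered the choice, but the list was drawn up with earlier results of these data known.

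RNA sequencing of 18 libraries from C57Bl/6J embryos was used, 3 in each of 6 groups. At embryonic day (E) 12.5 each library was the neocortex of 1 embryo, of genotype Chd8 +/+ (wild type), Chd8 +/-, Chd8 neo/neo or Chd8 neo/-. The neo allele carries a neomycin cassette that lowers its expression, and the study names Chd8 neo/neo the mild and Chd8 neo/- the severe hypomorph. These alleles act in every cell of the embryo. At E10.5 each library pooled the telencephalic vesicles of 2 embryos, either conditional knockouts (cKO, sox1-Cre; Chd8f/f) or controls (Ctrl) that were a mixture of Chd8f/f and Chd8 f/+, so that the controls carried floxed alleles too. Sox1-Cre recombines in neural progenitors, and other cells of the vesicles keep Chd8. Stage, tissue and allele therefore cannot be told apart where E12.5 is set beside E10.5. In bulk tissue, more cells that express a gene and more RNA per cell cannot be told apart either.

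Repair pathways divide the work by the lesion. Mismatch repair follows the replication fork and corrects wrongly paired bases, base excision repair removes small oxidised, deaminated or alkylated bases through dedicated glycosylases, and nucleotide excision repair cuts out a stretch around bulky lesions. The Fanconi anaemia pathway unhooks crosslinks between strands and passes the break on to homologous recombination, which copies the sister chromatid in S and G2 phase, whereas end joining seals breaks without a template in any phase. Dividing cortical progenitors depend on these pathways, and loss of end joining factors such as Xrcc4 or Lig4 in mice is known to kill newborn neurons.

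The E12.5 libraries held 38774591 to 61051667 counts each. Those of E10.5 held 49632937 to 68488879, and every cKO library was deeper than every Ctrl library. Chd8 itself, counted over all exons including those ahead of the cassette and outside the deleted part, stood at 237, 235 and 239 CPM (counts scaled to library size) in the wild-type libraries, 165, 170.2 and 165 in Chd8+/-, 213, 203 and 211 in Chd8neo/neo, 158, 147 and 142 in Chd8neo/-, 160.0, 168 and 184 in Ctrl and 120.5, 125 and 116 in cKO. Each mutant group lay wholly below its controls. The fall in Chd8neo/neo was smaller than in Chd8+/- on this measure, which does not separate full-length from aberrantly spliced transcripts. Of the E12.5 libraries, wild-type library 3, Chd8+/- library 1 and Chd8neo/neo libraries 1 and 2 carried Xist and hardly any Y-linked counts, and the others the reverse.

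In the control tissue all 52 genes were expressed, over a 44-fold range of level per exon length in the wild type at E12.5 and a 62-fold range in Ctrl at E10.5. As RPKM, a read count scaled to library size and exon length, Parp1, the sensor of strand breaks, was highest at 76.0 ± 6.66 (SD, n = 3) at E12.5 and 94.2 ± 4.5 at E10.5. Other core enzymes of base excision repair followed at E12.5, with Xrcc1, the scaffold, at 45.7 ± 1.76 RPKM, Polb, the repair polymerase, at 35.9 ± 1.69 and Apex1, the endonuclease for abasic sites, at 30.1 ± 2.44. Msh6, which recognises mismatches, reached 35.9 ± 1.19 RPKM. Xrcc4, the scaffold of the end joining ligase, was among the lowest at both stages, with 1.75 ± 0.184 RPKM at E12.5 and 1.52 ± 0.143 at E10.5, and at E12.5 it did not differ beyond its spread from Rad51b at 1.73 ± 0.152 or Dclre1c at 1.83 ± 0.198. For Apex1, 61.7% of the exon bases also belong to the opposite-strand gene Pip4p1, and the counting at E12.5 ignored strand, so its level is uncertain. The plot of level per exon length shows the spread within each pathway.

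**Figure D1:**
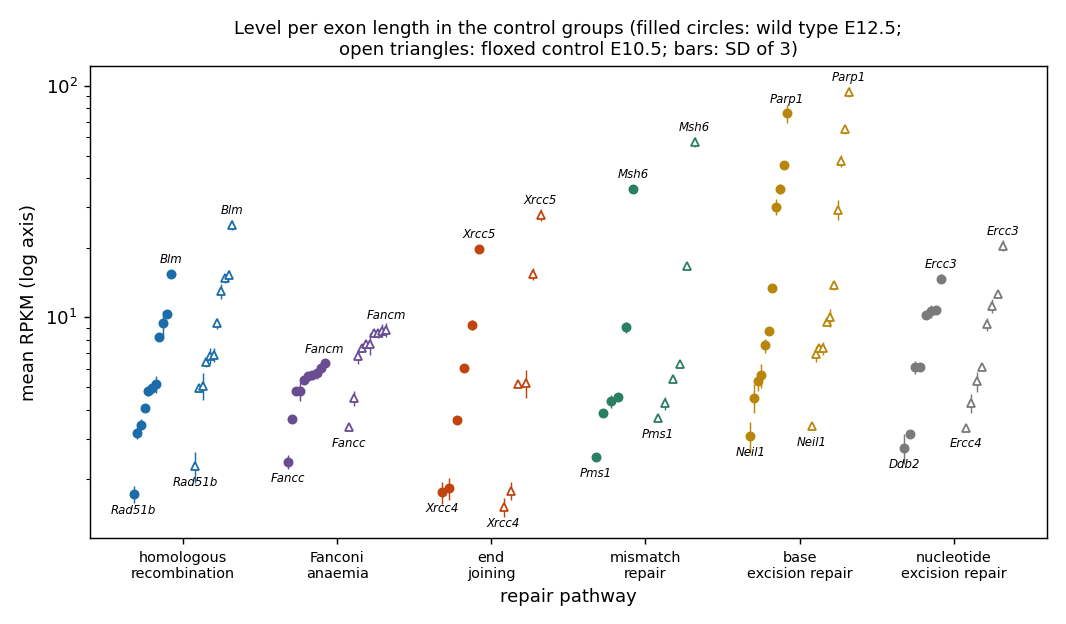
Mean RPKM (log axis) of each repair gene by pathway in the wild type at E12.5 (filled circles) and in Ctrl at E10.5 (open triangles), with the SD of 3 libraries; the highest and lowest gene of each pathway are named. Parp1 tops both stages at 76.0 ± 6.66 and 94.2 ± 4.5 RPKM, and Xrcc4 lies at the bottom of end joining in both.

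Promoters of 45 of the 52 genes are in RefSeq's promoter windows on GRCm38.p6 (250 bases before to 50 after a start site). The other 7 are Ddb2, Polb, Ercc3, Xrcc2, Fancd2, Xpc and Exo1. For genes with several windows a match in any counted in the shares, and 3 kinds of sequence were searched on both strands. The E2F-like words TTTCCCGC, TTTGGCGC, TTTCGCGC and TTTGCCGC, which mark many replication genes, stood in 7 of the 45 (15.6%), against 2.6% of all 27025 genes with a window: Brca2, Bard1, Rad51c, Fancg, Xrcc6, Msh3 and Msh6. The ETS-like word CCGGAAG stood in 11 (24.4%, against 9.93%), among them Xrcc4, Lig4, Fance, Pms2, Ogg1 and Ercc1. The CCAAT box (CCAAT, or ATTGG on the other strand) stood in 28 (62.2%, against 41.1%). A promoter could count under more than 1 kind, as that of Rad51c did, and a match describes letters only. The 120 bases ahead of the first start site listed are shown for 4 genes that were higher in both hypomorphs, with matches in capitals. Mlh3 and Mutyh have 2 listed start sites each. Xrcc4 and Smug1 are shown because they were also higher in the cKO, and Mlh3 and Mutyh because a CCAAT box stands in the part shown. The stretches are chr13:90089609-90089728 (minus strand) for Xrcc4, chr15:103163285-103163404 (minus) for Smug1, chr12:85270600-85270719 (minus) for Mlh3 and chr4:116807614-116807733 (plus) for Mutyh, each 5′ to 3′ along the gene.
Xrcc4: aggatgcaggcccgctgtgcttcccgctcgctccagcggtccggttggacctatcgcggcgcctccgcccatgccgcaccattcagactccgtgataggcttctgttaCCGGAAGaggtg
Smug1: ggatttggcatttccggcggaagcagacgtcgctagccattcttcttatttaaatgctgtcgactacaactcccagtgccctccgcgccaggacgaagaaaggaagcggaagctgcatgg
Mlh3: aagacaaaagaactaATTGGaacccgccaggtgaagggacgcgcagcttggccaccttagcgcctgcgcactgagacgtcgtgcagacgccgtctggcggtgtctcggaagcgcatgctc
Mutyh: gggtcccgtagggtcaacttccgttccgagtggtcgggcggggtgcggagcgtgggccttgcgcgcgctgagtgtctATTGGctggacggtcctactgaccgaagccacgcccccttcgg
The ETS-like word of Xrcc4 begins 12 bases ahead of the start site used, and the inverted CCAAT boxes of Mlh3 and Mutyh begin 105 and 43 bases ahead of the first site listed for them. No word of the 3 kinds stands in the stretch shown for Smug1, whose wider window does hold a CCAAT box. The Smug1 start site used lies upstream of the gene as annotated for counting, which spans bases 103153307 to 103158002. For Fanci, Xrcc5 and Ercc1, also higher in both hypomorphs, the same 120 bases held none of the words and are not shown.

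Comparisons with the control groups were made with edgeR, calling genes with an adjusted p under 0.05. In Chd8+/- neocortices no repair gene passed, where 0.0213% of the 18810 genes tested did (4 genes), and the median log2 fold change of the 52 was 0.01. At an unadjusted p under 0.05 there were 8 (15.4%, against 6.33% of all genes tested). Among them were Smug1 (0.25 ± 0.05 SE, adjusted p = 0.226), Xrcc4 (0.44 ± 0.09, adjusted p = 0.314) and Mlh3 (0.26 ± 0.05, adjusted p = 0.314), all higher in Chd8+/-. DESeq2, which called 12 genes in all, called these 3, with adjusted p of 0.00603, 0.0321 and 0.0427.

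In Chd8neo/neo neocortices 14 of the 52 rose and 1 fell, against 3.71% of all genes tested that rose and 4.45% that fell. Their median log2 fold change was 0.12, beside 0.01 over all genes, and 45 of 52 had a positive value (86.5%, against 51.2% of all genes tested). Every pathway had at least 1 riser: 2 of 11 in homologous recombination, 4 of 10 in the Fanconi anaemia pathway, 2 of 6 in end joining, 3 of 6 in mismatch repair, 2 of 11 in base excision repair and 1 of 8 in nucleotide excision repair. Xrcc4 was the 1 called gene to exceed 1.5-fold. The count rested on the libraries used: it was 6 without Chd8neo/neo library 2, 8 without library 1 and 19 without library 3, and 4 in a fit of these 2 groups alone. Of 15 markers of S and G2 phase, 3 were also higher in Chd8neo/neo, their sum lying between 4467 and 5021 CPM against 4221 to 4565 in the wild type, and 3 of 10 neuronal markers were lower (3120 to 3612 against 3798 to 4502). No marker of either list was at 0. Their part in the repair gene values was not tested.

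In Chd8neo/- neocortices 11 of the 52 rose and none fell, against 5.48% of all genes tested that rose and 5.99% that fell. At an unadjusted p under 0.05 there were 21 genes in either direction (40.4%, against 26.5% of all genes tested). The median of the 52 was 0.07, beside 0.00 over all genes. No gene of homologous recombination passed, against 2 of 10 in the Fanconi anaemia pathway, 3 of 6 in end joining, 1 of 6 in mismatch repair, 3 of 11 in base excision repair and 2 of 8 in nucleotide excision repair. The risers in both hypomorphs, which were set against the same wild-type libraries, were Fancd2, Fanci, Xrcc4, Xrcc5, Mlh3, Smug1, Mutyh and Ercc1. The count was 6 without Chd8neo/- library 1 or 2 and 7 without wild-type library 3. Here 3 of 6 blood markers were higher, with a sum of 4304 to 6863 CPM against 2982 to 3666 in the wild type. No blood marker was at 0, and 2 of 10 neuronal markers were lower. The summed S and G2 markers also lay above the wild type, at 4590 to 4807 CPM against 4221 to 4565. Their part was not tested.

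In the E10.5 cKO 3 of the 52 rose, against 5.75% of the 18435 genes tested, and 5 fell, against 5.70%. The median was -0.04, beside 0.00 over all genes. Xrcc4, Smug1 and Ercc5 rose, and Fancb, Fancl, Msh3, Neil3 and Ddb2 fell. The count was 4 without cKO library 2 or library 3, and DESeq2, which called 2712 genes in all against 2110 with edgeR, called 13 of the 52, adding rises of Fanci, Mlh3, Parp1 and Ercc1 and a fall of Polb. Of 6 mesenchymal markers 3 were higher in the cKO, with a sum of 854 to 1047 CPM against 686 to 769 in Ctrl and none at 0, and their part was not tested. No gene of the S and G2 list passed. The plot of fold changes by pathway sets the 4 comparisons side by side.

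**Figure D2:**
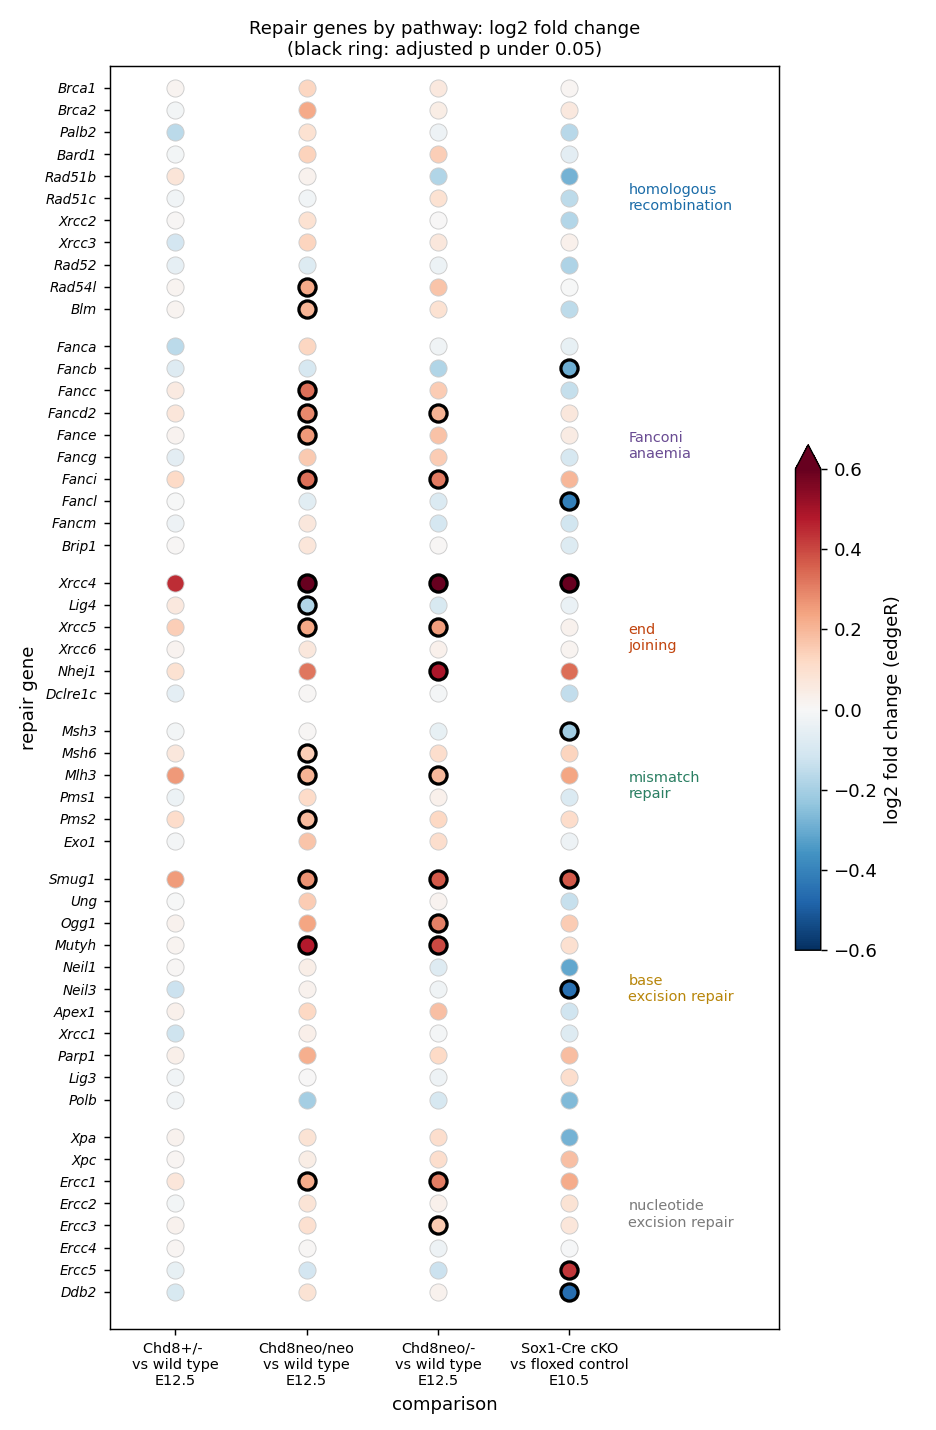
Log2 fold change (colour) of each of the 52 repair genes (vertical axis, grouped by pathway) in 4 comparisons with a control group (horizontal axis); a black ring marks an adjusted p under 0.05. Colour is cut at 0.6, which the Xrcc4 values of 0.66, 1.04 and 0.89 exceed, and rings are red at E12.5 except for Lig4 and mostly blue at E10.5.

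Xrcc4, an end joining gene, had the largest fold change of the 52 genes in Chd8neo/neo, in Chd8neo/- and in the cKO. Xrcc4 stood at 6.5, 7.81 and 7.87 CPM in the 3 wild-type libraries, 10.1, 9.21 and 10.7 in Chd8+/-, 10.8, 11.6 and 12.6 in Chd8neo/neo and 15.6, 15.2 and 14.7 in Chd8neo/-. Every mutant library was above every wild-type library, and the Chd8neo/- libraries were above all others. The log2 fold change was 0.66 ± 0.09 in Chd8neo/neo (adjusted p = 0.0016) and 1.04 ± 0.09 in Chd8neo/- (adjusted p = 1.6e-05). Set against each other, Chd8neo/- exceeded Chd8neo/neo by 0.37 ± 0.09 and Chd8neo/neo exceeded Chd8+/- by 0.22 ± 0.09, neither past the test (adjusted p = 0.36 and 0.148). In the cKO the same gene rose from 6.98, 5.77 and 6.46 to 10.6, 12.3 and 12.7 CPM (0.89 ± 0.11, adjusted p = 0.00083). The groups did not overlap, and all 3 calls were made under every alternative run. Tmem167, which overlaps Xrcc4 on the other strand and shares 2.7% of its exon bases, differed by -0.01, 0.01 and 0.07 in the same comparisons and was called in none.

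Nhej1 (XLF), which bridges the ends together with Xrcc4, was measured at 4.19, 3.89 and 4.0 CPM in the wild type, 4.94, 5.31 and 4.82 in Chd8neo/neo and 5.63, 5.27 and 6.12 in Chd8neo/-. Both hypomorphs lay above the wild type, and Chd8neo/- passed the test (0.49 ± 0.10, adjusted p = 0.0064) while Chd8neo/neo did not (0.32 ± 0.10, adjusted p = 0.0622). The call was lost with the counts of the second sequencing run alone (adjusted p = 0.075). At E10.5 Nhej1 was at 6.78, 5.30 and 5.44 CPM in Ctrl and 7.49, 7.04 and 7.59 in the cKO. These ranges did not overlap, but the gene did not pass (0.34 ± 0.12, adjusted p = 0.0886). Xrcc5, the larger Ku subunit that first grips a broken end, stood at 48.0, 51.3 and 51.6 CPM in the wild type, 59.5, 60.8 and 56.7 in Chd8neo/neo and 57.9, 60.8 and 60.6 in Chd8neo/-. It rose by 0.23 ± 0.05 and 0.25 ± 0.05 (adjusted p = 0.0106 and 0.0038), with no overlap, and the Chd8neo/neo call was lost without Chd8neo/neo library 2 (adjusted p = 0.0579), and also with only the groups compared (adjusted p = 0.0615). For its partner Xrcc6, 39.3, 43.0 and 42.6 CPM in the wild type, 45.9, 41.9 and 43.2 in Chd8neo/neo and 43.2, 43.0 and 41.3 in Chd8neo/- overlapped, with differences of 0.07 ± 0.06 and 0.03 ± 0.06. In the cKO the Ku subunits differed from Ctrl by 0.03 ± 0.06 and 0.02 ± 0.06, and neither passed.

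Lig4, the ligase that Xrcc4 holds, was the 1 repair gene lower in Chd8neo/neo. It measured 24.9, 26.3 and 25.9 CPM in the wild type, 25.8, 27.9 and 26.8 in Chd8+/-, 22.3, 22.7 and 23.1 in Chd8neo/neo and 24.3, 23 and 24.9 in Chd8neo/-. All Chd8neo/neo libraries were below all wild-type libraries, by -0.18 ± 0.05 (adjusted p = 0.0456), while Chd8neo/- differed by -0.09 ± 0.05 (adjusted p = 0.26) and the cKO by -0.04 ± 0.07. The call was lost without wild-type library 2 or 3 or Chd8neo/neo library 1 or 2 (adjusted p between 0.125 and 0.16), and also under 7 of the other kinds of alternative (adjusted p between 0.0634 and 0.131). Dclre1c (Artemis), the nuclease that trims ends, differed by 0.01 ± 0.08 in Chd8neo/neo, -0.01 ± 0.08 in Chd8neo/- and -0.15 ± 0.09 in the cKO and was called in none.

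Among the 12 other end joining genes examined, Tdp2, which clears topoisomerase from ends, rose in Chd8neo/neo (0.22 ± 0.06, adjusted p = 0.0271). Rif1 and Trp53bp1, which protect ends from resection, fell in Chd8neo/-, with log2 fold changes of -0.21 ± 0.04 and -0.16 ± 0.04 (adjusted p = 0.0088 and 0.0206), and Rif1 fell in the cKO (-0.29 ± 0.07, adjusted p = 0.0189). In counts, 2 rose and 1 fell in Chd8neo/neo, 1 rose and 2 fell in Chd8neo/-, and 1 fell in the cKO. The gene that fell in Chd8neo/neo was also Trp53bp1 (-0.14 ± 0.04, adjusted p = 0.0467).

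Of the 11 homologous recombination genes among the 52, those called against a control group act at and after strand invasion. Rad54l, a motor protein of strand invasion, stood at 64.5, 63.3 and 62.1 CPM in the wild type, 81.3, 74.2 and 67.1 in Chd8neo/neo and 72.2, 70.7 and 71.3 in Chd8neo/-. Both hypomorphs lay above the wild type, with 0.23 ± 0.06 (adjusted p = 0.0267) in Chd8neo/neo and 0.17 ± 0.06 (adjusted p = 0.0633) in Chd8neo/-. Blm, the helicase that dissolves joined intermediates, was at 75.7, 76.1 and 77.3 CPM in the wild type against 93.3, 92.9 and 77.5 in Chd8neo/neo (0.20 ± 0.06, adjusted p = 0.047). Chd8neo/neo library 3 was only just above the wild-type range. The Rad54l call was lost without wild-type library 2 or 3 or Chd8neo/neo library 1 or 2 (adjusted p between 0.0701 and 0.112), and also with only the groups compared or the sex-linked class as a covariate (adjusted p between 0.0545 and 0.0917). The Blm call was lost without wild-type library 1, 2 or 3 or Chd8neo/neo library 1 or 2 (adjusted p between 0.0804 and 0.193), and also under 4 of the other kinds of alternative (adjusted p between 0.0644 and 0.131). For Rad54l, 15.4% of the exon bases also belong to Lrrc41 on the other strand, which differed by -0.12 and -0.10 in the hypomorphs.

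Brca1 and Brca2 did not pass against the wild type. Brca2 was measured at 68.8, 62.6 and 66.1 CPM in the wild type and 82.8, 80.9 and 67.5 in Chd8neo/neo (0.23 ± 0.07, adjusted p = 0.0512), and at 68.2, 69.8 and 65.6 in Chd8neo/- (0.05 ± 0.07). Libraries 1 and 2 of Chd8neo/neo were high and library 3 was within the wild-type range. Brca1, which with Bard1 promotes resection of the ends, showed 88.2, 89.1 and 88.6 CPM in the wild type and 101, 99.7 and 90.2 in Chd8neo/neo (0.13 ± 0.05, adjusted p = 0.136), again with library 3 lowest. The summed S and G2 markers were lowest in the same library, at 4467 CPM against 5021 and 4913 in libraries 1 and 2. Library 3 was also the 1 of the group with Y-linked counts. With the sex-linked class as a covariate the Blm and Rad54l calls were lost (adjusted p = 0.0925 and 0.0545). The part of the S and G2 markers was not tested. In the cKO, Brca1 and Brca2 differed by 0.01 ± 0.06 and 0.06 ± 0.07, and 8 of the 11 genes of the pathway had a negative value, with a median of -0.16 and none called. The smallest adjusted p there was that of Blm, whose size was near this median, at 123, 119 and 131 CPM in Ctrl and 108, 111 and 116 in the cKO (-0.16 ± 0.06, adjusted p = 0.112).

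Rad51b, Rad51c, Xrcc2 and Xrcc3, which form complexes with each other, and the annealing factor Rad52 were called in no comparison with a control group. Of the 20 other recombination genes, 4 rose in Chd8neo/neo, among them Dna2, a resection nuclease (0.34 ± 0.08, adjusted p = 0.0188), and Rbbp8 (CtIP), which starts resection (0.18 ± 0.04, adjusted p = 0.0227). In Chd8neo/- 3 rose, Rbbp8 again with 0.17 ± 0.04. In the cKO 3 fell, led by Rad51ap1 (-0.32 ± 0.06, adjusted p = 0.0065), and Helq, a helicase (-0.40 ± 0.08, adjusted p = 0.009).

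In the Fanconi anaemia pathway 4 of 10 genes rose in Chd8neo/neo. Fancd2 and Fanci form the clamp whose ubiquitylation is the pathway's central step. Fanci stood at 36.0, 33.8 and 35.0 CPM in the wild type, 35.8, 39.8 and 38.2 in Chd8+/-, 45.7, 44.2 and 42.0 in Chd8neo/neo and 42.8, 45.2 and 42.2 in Chd8neo/-. All 6 hypomorph libraries exceeded all wild-type and Chd8+/- libraries, with 0.33 ± 0.05 (adjusted p = 0.0037) and 0.31 ± 0.05 (adjusted p = 0.0023), and both calls were made under every alternative. Fancd2 stood at 46, 42.4 and 44.5 CPM in the wild type, 59.2, 52.4 and 51.1 in Chd8neo/neo and 51.9, 51.0 and 50.8 in Chd8neo/-, without overlap. Its log2 fold changes were 0.29 ± 0.06 (adjusted p = 0.0097) and 0.21 ± 0.06 (adjusted p = 0.0283), the first lost in a fit of these 2 groups alone (adjusted p = 0.0517) and the second without wild-type library 2 or 3 or Chd8neo/- library 1, 2 or 3 (adjusted p between 0.065 and 0.102), and also with the second run alone (adjusted p = 0.0508). In the cKO the clamp genes differed by 0.20 ± 0.06 and 0.07 ± 0.06, neither past the test with edgeR. Polg, whose exons on the other strand share 16% of the exon bases of Fanci, differed by 0.22 ± 0.07 in Chd8neo/neo and 0.10 ± 0.07 in Chd8neo/-.

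Subunits of the core complex that ubiquitylates the clamp were called in different comparisons, and no contrast between subunits was tested. Fancc, a bridging subunit, was at 19.4, 17.2 and 19.6 CPM in the wild type, 23.6, 23.6 and 23.5 in Chd8neo/neo and 21.2, 19.9 and 21.4 in Chd8neo/-. Chd8neo/neo was clear of the wild type (0.33 ± 0.07, adjusted p = 0.0128), a call lost without Chd8neo/neo library 2 (adjusted p = 0.0501), and Chd8neo/- did not pass (0.15 ± 0.07, adjusted p = 0.182). Fance, which links the core to the clamp, was at 18.8, 18.9 and 17.2 CPM in the wild type, 22.6, 21.5 and 21.8 in Chd8neo/neo and 20.6, 21.7 and 19.6 in Chd8neo/-. It rose by 0.26 ± 0.06 in Chd8neo/neo (adjusted p = 0.022), a call lost without wild-type library 3 or Chd8neo/neo library 1 or 2 (adjusted p between 0.0601 and 0.0868), and also with the first run alone, the trend with length and GC content removed or only the groups compared (adjusted p between 0.0624 and 0.0838). Fancb and Fancl, partners in the catalytic module, were called in neither hypomorph. Fancl, the ubiquitin ligase itself, measured 17.8, 18.9 and 17.6 CPM in the wild type, 16.8, 18.3 and 16.6 in Chd8neo/neo and 16.6, 17.4 and 16.9 in Chd8neo/-, and 24.2, 21.1 and 23.7 in Ctrl and 17.1, 17.5 and 17.5 in the cKO. The Chd8neo/- libraries of both Fancl and Fancb lay wholly below the wild type, with differences of -0.09 ± 0.06 and -0.18 ± 0.08 (adjusted p = 0.378 and 0.181). The cKO libraries of Fancl lay below all Ctrl libraries (-0.41 ± 0.08, adjusted p = 0.0103), a call lost without cKO library 2 (adjusted p = 0.06). Fancb fell there from 22.9, 21.1 and 22.1 to 18.5, 18.9 and 16.7 CPM (-0.29 ± 0.08, adjusted p = 0.0402), a call lost without Ctrl library 1 or 3 or cKO library 1, 2 or 3 (adjusted p between 0.0645 and 0.171), and also with the first run alone or the trend with length and GC content removed (adjusted p between 0.0759 and 0.0799). For Fancl, 13.7% of the exon bases belong to Vrk2 as well, which differed by -0.12 ± 0.09 in the cKO.

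Fanca, Fancg, the translocase Fancm and the helicase Brip1 were called in no comparison with a control group. Of the 11 other genes of the pathway, Faap20, a small core subunit, rose in Chd8neo/neo (0.33 ± 0.06, adjusted p = 0.0059), in Chd8neo/- (0.39 ± 0.06, adjusted p = 0.00091) and in the cKO (0.25 ± 0.06, adjusted p = 0.0206). Ube2t, the conjugating enzyme that works with Fancl, fell in the cKO (-0.37 ± 0.07, adjusted p = 0.0113). In all, 2 rose in Chd8neo/neo, 1 rose and 1 fell in Chd8neo/-, and 2 rose and 2 fell in the cKO.

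In mismatch repair a recognition gene and both cutting subunits rose in Chd8neo/neo: Msh6, Pms2 and Mlh3. Msh6 was at 152, 148 and 158 CPM in the wild type and 176, 173 and 159 in Chd8neo/neo (0.15 ± 0.04, adjusted p = 0.0487), with library 3 just above the wild-type range, and its call was lost without wild-type library 1, 2 or 3 or Chd8neo/neo library 1 or 2 (adjusted p between 0.0538 and 0.2), and also under 7 of the other kinds of alternative (adjusted p between 0.0538 and 0.151). Pms2, the endonuclease subunit, was at 30.6, 31.2 and 32.3 CPM in the wild type, 36.7, 35.4 and 35.5 in Chd8neo/neo and 34.2, 34.1 and 34.2 in Chd8neo/-, without overlap. It passed in Chd8neo/neo (0.19 ± 0.04, adjusted p = 0.0198) and not in Chd8neo/- (0.12 ± 0.04, adjusted p = 0.0886). The Pms2 call was lost without wild-type library 1 or 2 or Chd8neo/neo library 1 or 2 (adjusted p between 0.0606 and 0.0868), and also with no filter, the second run alone or only the groups compared (adjusted p between 0.0633 and 0.157).

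Mlh3, which forms an alternative endonuclease used also in meiosis, was at 24.2, 24.8 and 21.9 CPM in the wild type, 27.6, 28.8 and 28.4 in Chd8+/-, 27.4, 26.5 and 28 in Chd8neo/neo and 26.3, 27.8 and 27 in Chd8neo/-. All 9 mutant libraries were above the 3 of the wild type, and the ranges of the mutant groups overlapped. The log2 fold change was 0.21 ± 0.05 in Chd8neo/neo (adjusted p = 0.0326) and 0.19 ± 0.05 in Chd8neo/- (adjusted p = 0.0332). The first call was lost without wild-type library 1 or 3 or Chd8neo/neo library 1, 2 or 3 (adjusted p between 0.0526 and 0.1), and also under 4 of the other kinds of alternative (adjusted p between 0.0517 and 0.23). The second was lost without wild-type library 1 or 3 or Chd8neo/- library 1, 2 or 3 (adjusted p between 0.0581 and 0.133), and also under 4 of the other kinds of alternative (adjusted p between 0.0536 and 0.215). In the cKO, Mlh3 was at 27.1, 27.6 and 27.2 CPM against 24.8, 22.9 and 21.8 in Ctrl (0.24 ± 0.07, adjusted p = 0.0637).

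Msh3, which recognises larger loops, was at 49.0, 52.6 and 51.6 CPM in the wild type and 52.7, 51.1 and 50.3 in Chd8neo/neo, and fell in the cKO from 70.0, 70.7 and 71.4 to 61.2, 61.7 and 60.6 (-0.21 ± 0.05, adjusted p = 0.0296), a call lost without Ctrl library 3 or cKO library 1, 2 or 3 (adjusted p between 0.0562 and 0.128). The E10.5 groups did not overlap. Pms1 and the exonuclease Exo1 were called nowhere. Of the 12 other genes of this pathway, which include the clamp loader and the replicative polymerase, 6 rose in each hypomorph. Pold2, a polymerase delta subunit, rose by 0.34 ± 0.05 and 0.43 ± 0.05 (adjusted p = 0.0024 and 0.00015). The clamp loader subunits followed in order of adjusted p, Rfc5 in Chd8neo/neo (0.35 ± 0.06, adjusted p = 0.0057) and Rfc2 in Chd8neo/- (0.23 ± 0.04, adjusted p = 0.0018). In the cKO 3 rose, Pold2 among them (0.34 ± 0.06, adjusted p = 0.0041), and Rfc3, a clamp loader subunit, fell (-0.28 ± 0.07, adjusted p = 0.0277).

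Of the 11 base excision repair genes among the 52, those called by edgeR were all glycosylases, which choose the lesion. Smug1, which removes uracil, was at 28, 29.3 and 28.3 CPM in the wild type, 33.4, 34.6 and 34.1 in Chd8+/-, 33.0, 35.4 and 34.6 in Chd8neo/neo and 36.5, 35.8 and 38.1 in Chd8neo/-. All mutant libraries exceeded all wild-type libraries. It rose by 0.27 ± 0.05 in Chd8neo/neo (adjusted p = 0.0059), 0.37 ± 0.05 in Chd8neo/- (adjusted p = 0.00033) and 0.37 ± 0.08 in the cKO (adjusted p = 0.0138), where the libraries read 30.8, 29.7 and 33.2 CPM against 25.4, 22.5 and 24.7 in Ctrl. Both E12.5 calls were made under every alternative, and the cKO call was lost without cKO library 3 (adjusted p = 0.0709). Ung, the other uracil glycosylase, was called nowhere.

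Mutyh and Ogg1 act as a pair on oxidised guanine, Ogg1 cutting out the damaged base and Mutyh the adenine misplaced opposite it. Mutyh was at 13.7, 11 and 10.6 CPM in the wild type, 11.9, 11.9 and 11.8 in Chd8+/-, 17.1, 14.4 and 17.8 in Chd8neo/neo and 15.5, 15.5 and 15.4 in Chd8neo/-. Both hypomorphs were above the wild type and Chd8+/-, by 0.48 ± 0.10 (adjusted p = 0.0106) and 0.39 ± 0.10 (adjusted p = 0.0169) against the wild type, the first call lost in a fit of these 2 groups alone (adjusted p = 0.0539) and the second without wild-type library 2 or 3 or Chd8neo/- library 1 or 2 (adjusted p between 0.0518 and 0.0681), and also with the first run alone (adjusted p = 0.0563). Ogg1 was at 10.5, 12.6 and 11.8 CPM in the wild type, 13.5, 14.3 and 13.2 in Chd8neo/neo and 14.7, 14.4 and 14 in Chd8neo/-, again without overlap. It passed in Chd8neo/- (0.30 ± 0.07, adjusted p = 0.0174), lost without wild-type library 1 or Chd8neo/- library 1 or 2 (adjusted p between 0.0629 and 0.0721), and also with the trend with length and GC content removed (adjusted p = 0.0984), and not in Chd8neo/neo (0.24 ± 0.07, adjusted p = 0.0633). For Ogg1, 10.6% of the exon bases are shared with Camk1, which differed by -0.23 ± 0.07 in Chd8neo/-. In the cKO, Mutyh and Ogg1 differed by 0.09 ± 0.08 and 0.15 ± 0.09 and were not called.

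Neil3, which serves crosslinks and replicating single strands, was at 42.8, 37.3 and 40.2 CPM in the wild type, 43.9, 39.1 and 39.6 in Chd8neo/neo and 40.8, 37.4 and 40.1 in Chd8neo/-. These ranges overlapped. At E10.5 it fell from 38.6, 38.8 and 39.7 CPM in Ctrl to 29.8, 28.3 and 27.7 in the cKO, with no overlap (-0.45 ± 0.07, adjusted p = 0.0022). This call was made under every alternative run at E10.5. Parp1, the most abundant of the 52 per length, was at 396, 371 and 441 CPM in the wild type, 487, 495 and 422 in Chd8neo/neo, 473, 521 and 502 in Ctrl and 572, 571 and 558 in the cKO, with 0.22 ± 0.07 (adjusted p = 0.0681) and 0.19 ± 0.06 (adjusted p = 0.0709). The Chd8neo/neo and wild-type ranges overlapped and the E10.5 ranges did not. Xrcc1, Lig3, Polb, Apex1 and Neil1 were called in no comparison with edgeR. Of the 12 other genes, Nthl1, a glycosylase for oxidised pyrimidines, rose in Chd8neo/neo (0.39 ± 0.09, adjusted p = 0.0247) and Chd8neo/- (0.39 ± 0.09, adjusted p = 0.0169). Mpg rose in Chd8neo/- (0.31 ± 0.08, adjusted p = 0.0208). In the cKO 1 rose, Tdg (0.20 ± 0.05, adjusted p = 0.0352), and 1 fell, Parp2 (-0.26 ± 0.07, adjusted p = 0.027).

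Of the 8 nucleotide excision repair genes among the 52, those called against a control group were nuclease subunits, a helicase and a damage sensor. Ercc1, the regulatory subunit of the nuclease that cuts ahead of the lesion, was at 34.2, 33.3 and 33.5 CPM in the wild type, 36.0, 35.2 and 35.0 in Chd8+/-, 37.9, 38.5 and 41.4 in Chd8neo/neo and 42.7, 41.4 and 40.9 in Chd8neo/-. All 9 mutant libraries were above the wild type. It rose by 0.22 ± 0.05 (adjusted p = 0.0128) and 0.31 ± 0.05 (adjusted p = 0.0012), the second under every alternative and the first lost in a fit of these 2 groups alone (adjusted p = 0.0741). Its catalytic partner Ercc4 differed by 0.01 ± 0.06 and -0.03 ± 0.06 and was called nowhere.

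Ercc5 (XPG), which cuts behind the lesion, was at 62.1, 60.9 and 57.6 CPM in the wild type, 55.0, 55.5 and 56.6 in Chd8neo/neo and 55.1, 54.9 and 55.2 in Chd8neo/-. The hypomorph libraries lay below the wild-type range, by -0.11 ± 0.04 (adjusted p = 0.105) and -0.13 ± 0.04 (adjusted p = 0.0573), short of the test. At E10.5 it rose from 58.9, 53.1 and 52.5 CPM in Ctrl to 68.2, 77.2 and 76.1 in the cKO (0.43 ± 0.07, adjusted p = 0.0041), with no overlap and under every alternative run at E10.5.

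Xpc and Ddb2 are the sensors of helix distortion. Ddb2 fell in the cKO from 12.8, 10.5 and 11.7 to 9.71, 7.83 and 7.97 CPM (-0.46 ± 0.11, adjusted p = 0.0272). The call was lost without Ctrl library 1 or 3 or cKO library 2 or 3 (adjusted p between 0.0747 and 0.137), and also with the second run alone (adjusted p = 0.0537). Xpc was at 34.4, 33.5 and 32.3 CPM in Ctrl and 37.1, 36.8 and 39.6 in the cKO, without overlap, but did not pass (0.18 ± 0.07, adjusted p = 0.106). In the hypomorphs Ddb2 differed by 0.09 ± 0.10 and 0.03 ± 0.10 and Xpc by 0.04 ± 0.05 and 0.10 ± 0.05, with no call. Acp2, which holds 23.8% of the exon bases of Ddb2 on the other strand, differed by 0.01 ± 0.06 in the cKO. Ercc3, a TFIIH helicase, was at 39.7, 43.5 and 42.0 CPM in the wild type and 47.3, 45.4 and 46.9 in Chd8neo/- (0.16 ± 0.05, adjusted p = 0.0437), a call lost without wild-type library 1 or 3 or Chd8neo/- library 1, 2 or 3 (adjusted p between 0.087 and 0.156), and also under 6 of the other kinds of alternative (adjusted p between 0.0501 and 0.318). Of the 18 other genes of this pathway, Uvssa, which serves repair in transcribed genes, rose in Chd8neo/neo (0.39 ± 0.06, adjusted p = 0.0024), Chd8neo/- (0.37 ± 0.06, adjusted p = 0.0014) and the cKO (0.37 ± 0.08, adjusted p = 0.0135). In all, 2 rose in each hypomorph, and 3 rose and 1 fell in the cKO. The plot of library values shows 8 genes that carry these differences.

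**Figure D3:**
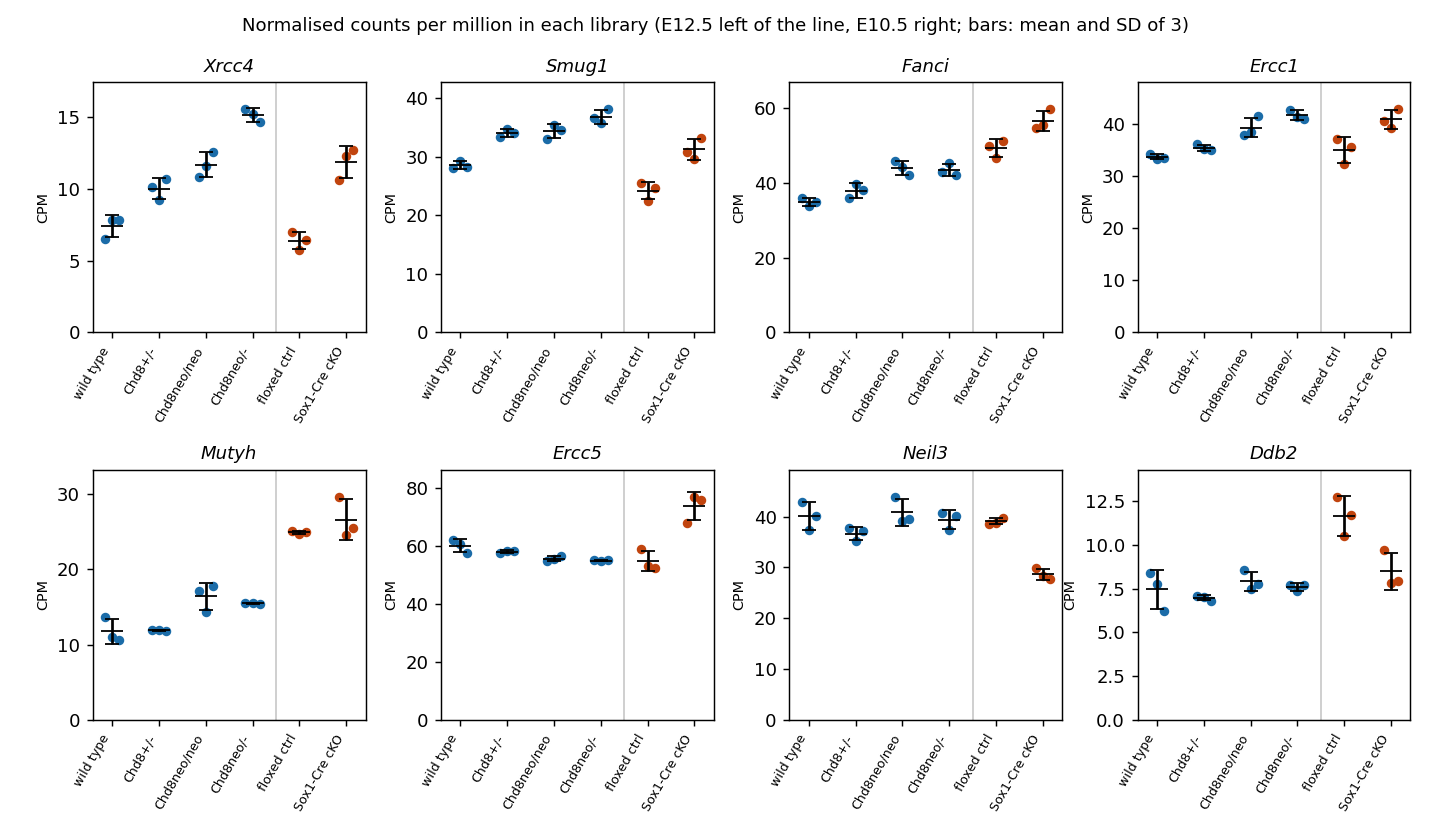
CPM (vertical axes, from 0) of 8 repair genes in each of the 18 libraries by group (horizontal axes; blue E12.5, red E10.5), with mean and SD of 3. Xrcc4 and Smug1 lie higher in every mutant group than in its controls, and at E10.5 Ercc5 is higher and Neil3 and Ddb2 are lower in the cKO; for Ddb2 the ranges at E10.5 are 12.8, 10.5 and 11.7 in Ctrl and 9.71, 7.83 and 7.97 in the cKO.

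The E12.5 genotypes were also set against each other. Between Chd8neo/neo and Chd8+/-, 9 of the 52 were higher in Chd8neo/neo, against 2.00% of all genes, and 1 was lower, against 3.28%. They were Brca2 (0.25 ± 0.07), Palb2, which joins Brca1 to Brca2 (0.25 ± 0.07), Rad54l, Fancc, Fancd2, Fance, Fancg, Fanci and Mutyh (0.46 ± 0.10), with Lig4 lower (-0.24 ± 0.05), and adjusted p lay between 0.021 and 0.0492. Same-numbered libraries of these 2 groups were also taken as pairs, although no label pairs them and the study bred the genotypes from different crosses. With this replicate block 4 were called: Mutyh, Palb2, Lig4 and Fanca. The count was 0 without Chd8+/- library 1, Chd8+/- library 3 or Chd8neo/neo library 1, 1 without Chd8neo/neo library 2, 5 without Chd8+/- library 2 and 14 without Chd8neo/neo library 3. It was also 0 in a fit of these groups alone, 2 with the sex-linked class as a covariate and 1 with the counts of the second sequencing run. Between Chd8neo/- and Chd8neo/neo no repair gene was called, against 0.0159% of all genes (3 genes). Of the 52, 4 had an unadjusted p under 0.05 (7.69%, against 8.43% of all genes tested) and 37 had a negative value, with a median of -0.05. DESeq2 gave 0 as well.

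To ask whether the E12.5 and E10.5 effects differed, the effect of each hypomorph minus that of the cKO was tested over all 18 libraries. For Chd8neo/neo, 6 of the 52 differences were positive and called, against 3.16% of the 19565 genes tested, and 1 was negative, against 3.64%. Their median was 0.16, beside 0.02 over all genes. For Chd8neo/- the counts were 3, against 2.89%, and 1, against 3.90%, with a median of 0.13. The wild-type, Ctrl and cKO libraries serve in both differences, so these are not separate observations.

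Ercc5 and Neil3 were called in both differences under every alternative run, which for differences did not include the sex-linked class. Ercc5 had effects of -0.11 ± 0.04 in Chd8neo/neo and 0.43 ± 0.07 in the cKO, a difference of -0.54 ± 0.08 (adjusted p = 0.00039), and -0.55 ± 0.08 for Chd8neo/- (adjusted p = 0.00035). Neil3 differed by 0.48 ± 0.09 (adjusted p = 0.0031) and 0.43 ± 0.09 (adjusted p = 0.0071), from an effect near 0 at E12.5 and -0.45 ± 0.07 at E10.5. Fancc and Blm were called for Chd8neo/neo under every alternative run, again without the sex-linked class. With that class as a covariate the E12.5 call of Blm against the wild type was lost (adjusted p = 0.0925). Fancc had a positive effect of 0.33 ± 0.07 at E12.5 and a negative one of -0.14 ± 0.07 at E10.5, a difference of 0.48 ± 0.09 (adjusted p = 0.0049), and Blm differed by 0.36 ± 0.08 (adjusted p = 0.0118).

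Each of the remaining called differences was lost under some of the alternatives run. Fancl differed by 0.35 ± 0.09 (adjusted p = 0.0291) for Chd8neo/neo, lost without wild-type library 1 or 3, Chd8neo/neo library 2, Ctrl library 1 or 3 or cKO library 2 or 3 (adjusted p between 0.0501 and 0.0858), and also under 4 of the other kinds of alternative (adjusted p between 0.0636 and 0.0918), and by 0.32 ± 0.09 (adjusted p = 0.0403) for Chd8neo/-, lost without wild-type library 1 or 3, Chd8neo/- library 1, 2 or 3, Ctrl library 1 or 3 or cKO library 1, 2 or 3 (adjusted p between 0.0539 and 0.103), and also under 6 of the other kinds of alternative (adjusted p between 0.062 and 0.184). Ddb2 differed by 0.55 ± 0.16 (adjusted p = 0.0403), lost without wild-type library 2 or 3, Chd8neo/neo library 1 or 2, Ctrl library 1 or 3 or cKO library 2 or 3 (adjusted p between 0.0557 and 0.114), and also with the second run alone, the trend with length and GC content removed or only the groups compared (adjusted p between 0.0506 and 0.124), and Msh3 by 0.22 ± 0.06 (adjusted p = 0.0356), lost without wild-type library 1 or 3, Chd8neo/neo library 1 or 2, Ctrl library 1 or 3 or cKO library 2 or 3 (adjusted p between 0.0515 and 0.109), and also under 4 of the other kinds of alternative (adjusted p between 0.0768 and 0.197). Xpa, which verifies the lesion, was at 11.4, 12.3 and 10.9 CPM in the wild type, 12.4, 12.7 and 12.1 in Chd8neo/-, 11.1, 9.16 and 9.79 in Ctrl and 7.77, 8.68 and 8.28 in the cKO. It was called in neither comparison, but its difference for Chd8neo/- was 0.39 ± 0.12 (adjusted p = 0.0481), lost without wild-type library 1 or 3, Chd8neo/- library 1, 2 or 3, Ctrl library 1 or 3 or cKO library 1, 2 or 3 (adjusted p between 0.0603 and 0.133), and also under 7 of the other kinds of alternative (adjusted p between 0.063 and 0.153). Xrcc4 and Smug1, the genes that rose at both stages, had differences of -0.22 ± 0.14 and -0.10 ± 0.08 for Chd8neo/neo that were not called. All 10 genes of the Fanconi anaemia pathway and all 11 of homologous recombination had a positive difference for Chd8neo/neo, of which 3 were called. A positive difference was also found for 82.7% of the whole list of 52, against 52.9% of all genes tested. The plot of effects at E12.5 and E10.5 shows these genes.

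**Figure D4:**
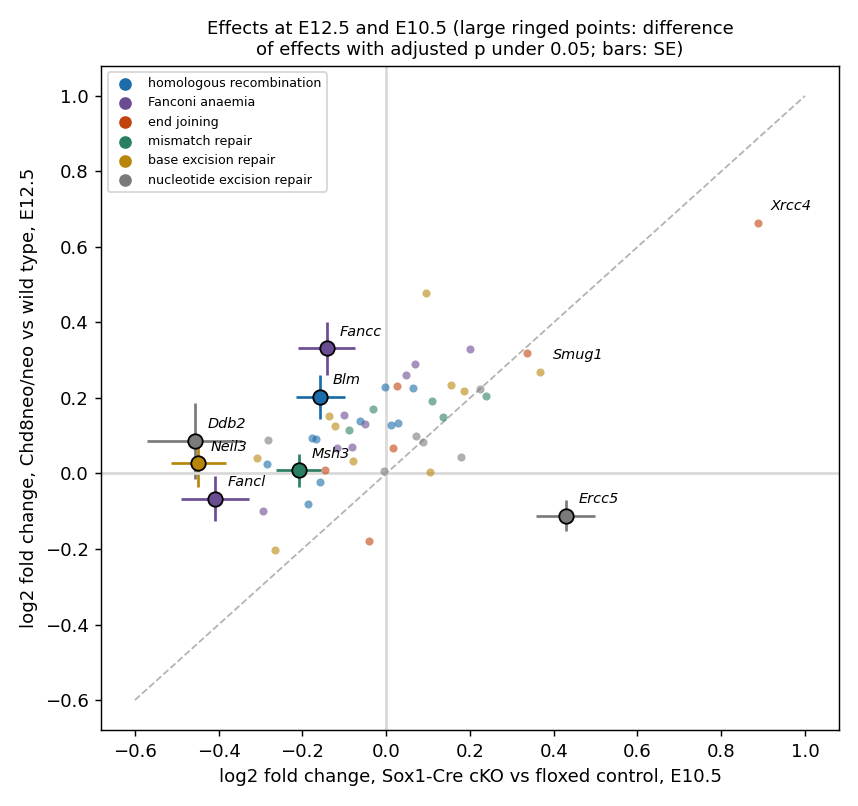
Log2 fold change of the 52 repair genes in Chd8neo/neo against wild type at E12.5 (vertical) and in the cKO against Ctrl at E10.5 (horizontal), coloured by pathway; large ringed points with SE bars had a called difference of effects, and the dashed line marks equal effects. Ercc5 lies below the line at 0.43 and -0.11, the 6 other ringed genes lie above it, and Xrcc4 lies far right near it at 0.89 and 0.66.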

How the data were processed

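RNA of 18 libraries was sequenced in 2 runs each, which GEO lists as 36 samples, and the runs were summed. Per the labels and the study's methods, the authors checked reads with FastQC 0.11.2, trimmed them with Trim Galore 0.4.1, aligned them with TopHat2 2.1.0 to GRCm38 and counted reads per gene with featureCounts 1.5.0, without strand at E12.5. The deposited values are raw counts.

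Genes were kept by filterByExpr, scaled by TMM and tested with edgeR 4.0.16 in R 4.3.3 (quasi-likelihood, robust), with Benjamini-Hochberg adjustment over all genes tested and a threshold of 0.05. The 12 libraries of E12.5 and the 6 of E10.5 were fitted separately, and all 18 together for differences of effects. Log2 fold changes are given ± SE. The study took replicates from different litters, and p-values measure the spread between these libraries. The fits were tested on simulated counts.

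The 52 genes and the other lists were chosen with earlier results of these data known. Values per library are given for genes called against a control group or in a difference of effects, for the gene with the smallest adjusted p where a pathway had no call, and for Ddb2, Xpc, Brca1, Brca2, Parp1, Xrcc5 and Xrcc6 whatever their values. At most 2 other repair genes per pathway and comparison are named, those with the smallest adjusted p. A few more values are given for context. Overlapping neighbours were read from the annotation. Deviations of same-numbered libraries from their group means correlated between 0.108 and 0.199 for Chd8+/- and Chd8neo/neo, and their numbers were taken to pair them. Other groups did not pass 0.1 in every pair. This pairing is an assumption, since differently numbered libraries of other groups correlated as strongly. Wild-type library 2 and Chd8neo/neo library 3 reached 0.225. The alternatives were DESeq2 1.42.0, RLE scaling, no filter, each run alone, only the groups compared, a replicate block, the sex-linked class, the trend with exon length and GC content removed (limma 3.58.1) and each library left out.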

Additional observations from a re-analysis of the deposited data

Results flagged for a closer look

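Each of these repair genes had a hypomorph effect at E12.5 that differed from the cKO effect at E10.5 by edgeR's test of the difference. For Chd8neo/neo the log2 differences were -0.54 for Ercc5, 0.55 for Ddb2, 0.36 for Blm, 0.48 for Neil3, 0.35 for Fancl, 0.48 for Fancc and 0.22 for Msh3. For Chd8neo/- they were -0.55 for Ercc5, 0.39 for Xpa, 0.43 for Neil3 and 0.32 for Fancl. Ercc5 had a negative effect in both hypomorphs, short of the test, and a positive one in the cKO. The other 7 genes had a negative effect in the cKO, of which those of Blm, Fancc and Xpa did not pass alone. Stage, tissue, allele, pooling of embryos and sex-linked class cannot be told apart in these differences.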

How the results depend on the processing

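Of 55 calls of the 52 genes, 17 were made under every alternative run for them. Over 864 pairs of a call and an alternative, 584 passed, 280 missed the test and 0 changed direction. The cause of the changes was not tested. DESeq2 gave 3 calls for Chd8+/- against wild type (edgeR 0) and 13 for the cKO (edgeR 8). Fits of only the groups compared gave 4 for Chd8neo/neo (15 with all E12.5 libraries), 0 for Chd8neo/neo against Chd8+/- (10), 4 for the Chd8neo/neo minus cKO difference (7) and 2 for the Chd8neo/- minus cKO difference (4). For Chd8neo/neo against Chd8+/- the replicate block gave 4, the first run 6, the second run 1 and the sex-linked class 2. For Chd8neo/- minus cKO, RLE scaling, no filter, the first run and the second run each gave 2. The replicate block gave 0 for Chd8+/-, 11 for Chd8neo/neo, 9 for Chd8neo/-, 0 for Chd8neo/- against Chd8neo/neo, 11 for the cKO, and 7 and 4 for the differences.

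Leaving out 1 library gave 6 to 19 for Chd8neo/neo, 6 to 9 for Chd8neo/-, 0 to 14 for Chd8neo/neo against Chd8+/- and 4 to 9 for the cKO. For Chd8neo/neo minus cKO it gave 4 to 11: 4 without wild-type library 3, Ctrl library 1 or cKO library 2 or 3, and 11 without Chd8neo/neo library 3. For Chd8neo/- minus cKO it gave 2 to 8: 2 without wild-type library 3, any Chd8neo/- library, Ctrl library 1 or cKO library 2 or 3, and 8 without Ctrl library 2. Chd8+/- and Chd8neo/- against Chd8neo/neo stayed at 0. The sex-linked class was not run at E10.5 or for the differences, since the cKO pools hold both classes. Ctrl libraries 1 and 3 carried Xist and hardly any Y-linked counts, and Ctrl library 2 the reverse. Sex-linked class therefore differed between the E10.5 groups, and Fancb, called there, lies on the X chromosome. With 3 libraries a group, small changes can be missed.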
